A study of Mus musculus with 8 samples.

Results

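The immunoglobulin genes described here were taken from a table of 35204 gene symbols by name. They are the variable segments of the heavy, kappa and lambda loci (Ighv, Igkv, Iglv), the constant regions of the heavy chain (Ighm, Ighd, Ighe, Igha and the Ighg genes) and of the light chains (Igkc and the Iglc genes), and 2 genes of the same secretory program, Jchain and Mzb1. The rule matched 361 rows, of which 209 had a mean above 0 and 152 stood at 0 in each of the 8 libraries. By class, the 209 were 95 Ighv, 97 Igkv and 3 Iglv segments, 4 Ighg and 3 Iglc genes, and Igha, Ighm, Ighd, Ighe, Igkc, Jchain and Mzb1 as 1 gene each.

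Messenger RNA of whole mouse liver was measured in 8 poly-A libraries, all from C57BL/6J mice labelled wild type. The 3 control libraries came from untreated mice. The 5 libraries called TAZ-CCl4 here came from mice that received TAZ S89A, under the EF1a promoter and by HTVI (hydrodynamic tail vein injection), together with carbon tetrachloride (CCl4). CCl4, a liver toxin, was given 30 times, 3 times a week over 10 weeks. TAZ is a transcriptional coactivator of the Hippo pathway, and S89A removes a site at which that pathway restrains it. The labels give no age or sex, and no group had the construct alone or CCl4 alone, so the effects of the 2 cannot be told apart. Controls and TAZ-CCl4 libraries belong to separate sequencing projects in the labels, so project and treatment cannot be told apart either. Each control also carries a second sample identifier in its label. Whether the libraries stem from separate mice is not said in the labels, and the p-values therefore measure only the spread between these libraries, which may be technical.

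Antibodies are pairs of heavy and light chains. In a developing B cell, 1 variable segment of each locus is joined to short joining segments and is then transcribed with a constant region, which for the heavy chain sets the isotype: IgM and IgD in naive B cells, and IgG, IgA or IgE after class switching. Plasma cells, the end stage of the lineage, fill much of their messenger RNA with secreted antibody transcripts. Jchain encodes the joining chain that links IgA into dimers and IgM into pentamers, and Mzb1 encodes a chaperone of the endoplasmic reticulum that takes part in antibody assembly. IgA is the isotype of mucosal surfaces, and hepatocytes of rodents carry polymeric IgA into bile through the receptor encoded by Pigr. In pieces of whole liver, a change in the number of cells of a type and a change in RNA per cell cannot be told apart.

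Several of these genes are near copies of each other, and this bears on how far their values can be separated. The sequences below show the genes with which the results deal most: the IgA and kappa constant regions, the 3 lambda constant regions with signal, and some of the variable segments with the highest TAZ-CCl4 means, with their near copies. They are the first coding bases of the GENCODE release M21 transcripts (mm10), and positions are on that build. Igha lies on the minus strand of chromosome 12 (113254830 to 113260236) and Igkc on the plus strand of chromosome 6 (70726435 to 70726966).
Igha: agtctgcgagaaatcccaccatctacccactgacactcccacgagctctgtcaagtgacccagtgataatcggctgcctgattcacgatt
Igkc: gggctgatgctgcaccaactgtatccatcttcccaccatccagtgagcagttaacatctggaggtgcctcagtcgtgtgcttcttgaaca
Every stretch of 31 bases in Igha, Igkc, Ighm and Ighe occurs in no other annotated gene, so reads of these 4 can be placed. The lambda constant regions lie on the minus strand of chromosome 16, and capitals mark bases that differ from the aligned base of Iglc1.
Iglc1: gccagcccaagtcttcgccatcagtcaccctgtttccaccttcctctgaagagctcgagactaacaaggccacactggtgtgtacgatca
Iglc2: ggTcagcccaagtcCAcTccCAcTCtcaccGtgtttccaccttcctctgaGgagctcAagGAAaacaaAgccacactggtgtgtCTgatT
Iglc3: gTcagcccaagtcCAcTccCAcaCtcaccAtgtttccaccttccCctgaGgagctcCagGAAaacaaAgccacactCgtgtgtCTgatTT
Over 314 aligned coding bases, Iglc2 and Iglc3 were identical at 96.5%, and Iglc1 and Iglc2 at 73.2%. Of the 31-base stretches of Iglc3, 25.1% also occur in Iglc2, so values of these 2 genes are uncertain one against the other.

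The most abundant kappa segments show the same problem. In the next pair, on the plus strand of chromosome 6, the capital marks the base of Igkv1-110 that differs from Igkv1-117 (68121046 to 68121827).
Igkv1-117: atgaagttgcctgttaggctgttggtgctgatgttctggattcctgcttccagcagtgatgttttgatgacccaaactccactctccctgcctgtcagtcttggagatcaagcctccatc
Igkv1-110: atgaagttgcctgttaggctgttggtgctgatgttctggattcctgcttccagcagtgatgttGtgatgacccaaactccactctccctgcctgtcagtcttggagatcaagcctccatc
Across 359 coding bases the pair differed at 10, and 62.6% of the 31-base stretches of Igkv1-117 occur in Igkv1-110 as well. Igkv10-96, on the minus strand (68631963 to 68632442), belongs to another family.
Igkv10-96: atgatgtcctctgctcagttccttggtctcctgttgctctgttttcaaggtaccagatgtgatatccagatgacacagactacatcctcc
The heavy segments below lie on the minus strand of chromosome 12, and capitals mark bases that differ from Ighv1-72 (115757984 to 115758461).
Ighv1-72: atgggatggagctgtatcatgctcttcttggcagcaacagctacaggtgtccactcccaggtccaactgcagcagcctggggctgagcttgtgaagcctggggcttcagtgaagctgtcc
Ighv1-64: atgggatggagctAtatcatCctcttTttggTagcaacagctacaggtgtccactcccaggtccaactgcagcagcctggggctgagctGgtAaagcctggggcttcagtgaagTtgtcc
Ighv1-53: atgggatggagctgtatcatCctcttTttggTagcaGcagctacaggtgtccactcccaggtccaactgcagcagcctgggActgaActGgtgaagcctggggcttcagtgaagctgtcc
Ighv1-26: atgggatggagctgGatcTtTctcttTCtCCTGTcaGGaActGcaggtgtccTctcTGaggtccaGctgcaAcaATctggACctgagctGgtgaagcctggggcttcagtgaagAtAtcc
Ighv1-72, Ighv1-64 and Ighv1-53 were identical at 95.4% of 351 bases in each pairing, and Ighv1-26 matched them at 83.2% to 86.0%. Only 1.91% of the 31-base stretches of Ighv1-72 occur in no other gene, and 80.3% occur in Ighv1-62-3. Over the 95 Ighv segments with signal, the median share of 31-base stretches found in no other gene was 53.6%, and over the 97 Igkv segments it was 51.6%. Values of single segments are therefore uncertain, while sums over a locus depend less on how reads were divided within it.

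Summed over the rule, immunoglobulin signal was far higher in the TAZ-CCl4 libraries. The sum was 309, 525 and 465 normalised counts in control replicates 1 to 3, and 3329, 6609, 6048, 16967 and 7621 in TAZ-CCl4 replicates 1 to 5. Each TAZ-CCl4 library exceeded each control, and replicate 4 stood highest. The means were 433 ± 112 (SD, n = 3) and 8115 ± 5198 (SD, n = 5), an 18.7-fold difference, or 13.6-fold without TAZ-CCl4 replicate 4. Normalised counts are gene-level estimated counts divided by a size factor for each library, as the authors deposited them. They added up to between 29.8 and 35.1 M per control and between 12.4 and 14.2 M per TAZ-CCl4 library. Per M of normalised counts in the library, the sum was 8.82 to 17.5 in the controls and 261 to 1371 in the TAZ-CCl4 libraries, a 44.6-fold difference of the means.

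The difference ran through most classes. Of 14171 genes with a mean of at least 10, limma with Benjamini-Hochberg adjustment called 62.3% changed at an adjusted p under 0.05, 32.4% as higher and 29.8% as lower. Of the 361 immunoglobulin rows, 30 reached that mean: 28 were called higher, 0 lower, and Ighd and Iglc3 were not called. Of the 30, 24 had a control mean under 10 and reached the minimum only through their TAZ-CCl4 values, so they had to differ. The count is therefore a description, and so is the p of each of those 24, which include the IgG genes tested, Iglc1, Iglc2, Mzb1 and each variable segment tested. Of the 209 rows above 0, 206 had the higher mean in the TAZ-CCl4 libraries, and Ighd, Ighv1-56 and Igkv6-29 had the lower. Over all 22625 genes above 0, the median log2 fold change was 0.10. In 73 of the 209 each TAZ-CCl4 value lay above each control value, and in 0 the reverse, against 21.2% of 22625 genes above 0 for the first pattern. At 0 in all 3 controls were 139 of the 209, and in these the reverse could not occur, so the count of 0 was largely fixed in advance. Above 0 in all 5 TAZ-CCl4 libraries were 91 of the 209. No share over all genes is given for the reverse pattern or for the counts of 139 and 91.

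IgA was the isotype with the largest signal in the TAZ-CCl4 libraries. Igha stood at 32.7, 34.5 and 34.5 normalised counts in the controls against 1268, 2536, 1951, 6138 and 2508 in TAZ-CCl4 replicates 1 to 5. The groups did not overlap, and the controls differed little among themselves. The log2 fold change, computed on log2(normalised count + 1) as for each gene below, was 6.16 ± 0.39 (SE; limma, adjusted p = 1.24e-06). The ratio of the group means was 85.0, or 60.9 without TAZ-CCl4 replicate 4.

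The IgG genes were close to 0 in the controls and rose as well. Ighg2c stood at 0, 1.21 and 0 in the controls against 30.0, 187, 105, 289.6 and 135 in the TAZ-CCl4 libraries (log2 fold change 6.52 ± 0.66; limma, adjusted p = 1.70e-05). Ighg2b stood at 0, 8.52 and 7.26 against 75.1, 168, 280.2, 386 and 319 (5.64 ± 0.76; limma, adjusted p = 1.12e-04). Its log2 fold change was 4.59 without control replicate 1, in which it was listed at 0. Ighg1 stood at 1.94, 0 and 2.47 against 67.9, 65.1, 42.2, 393 and 42.6 (5.21 ± 0.74; limma, adjusted p = 1.57e-04). TAZ-CCl4 replicate 4 held most of that signal, and the Ighg1 mean per kilobase of exons was 47.1 with it and 21.0 without it. Ighg3 was low throughout, at 0, 0 and 1.35 against 8.15, 7.45, 7.02, 14.7 and 3.93, under the minimum for the test. None of the 4 IgG genes overlapped between the groups. The mix of IgG subclasses varied between TAZ-CCl4 libraries: Ighg1 made up 8.52% to 37.5% of the IgG sum, Ighg2b 35.6% to 64.6% and Ighg2c 16.6% to 43.7%.

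Of the isotypes of naive B cells, Ighm was called higher with a smaller difference and Ighd was not called. Ighm stood at 106, 171 and 155 in the controls against 139, 239, 499.9, 391 and 503 in the TAZ-CCl4 libraries. TAZ-CCl4 replicate 1 lay within the control range, and the other 4 lay above it. Its log2 fold change was 1.17 ± 0.40 (limma, adjusted p = 0.0268), and the call was lost on leaving out control replicate 1 or 3 or TAZ-CCl4 replicate 3, 4 or 5 (limma, adjusted p = 0.0529 to 0.109). Ighd, which is made with Ighm in naive B cells, stood at 29.8, 43.7 and 36.7 against 2.16, 15.0, 26.3, 32.1 and 31.4. The groups overlapped through TAZ-CCl4 replicates 4 and 5, and the difference of -1.12 ± 0.72 on the log2 scale did not pass (limma, adjusted p = 0.196). Scaled to equal library totals, the Ighd difference was 0.056, and without TAZ-CCl4 replicate 1 it was -0.51. Ighe, the IgE gene, was listed at 0 in 7 libraries and at 0.731 in TAZ-CCl4 replicate 4.

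**Figure D1:**
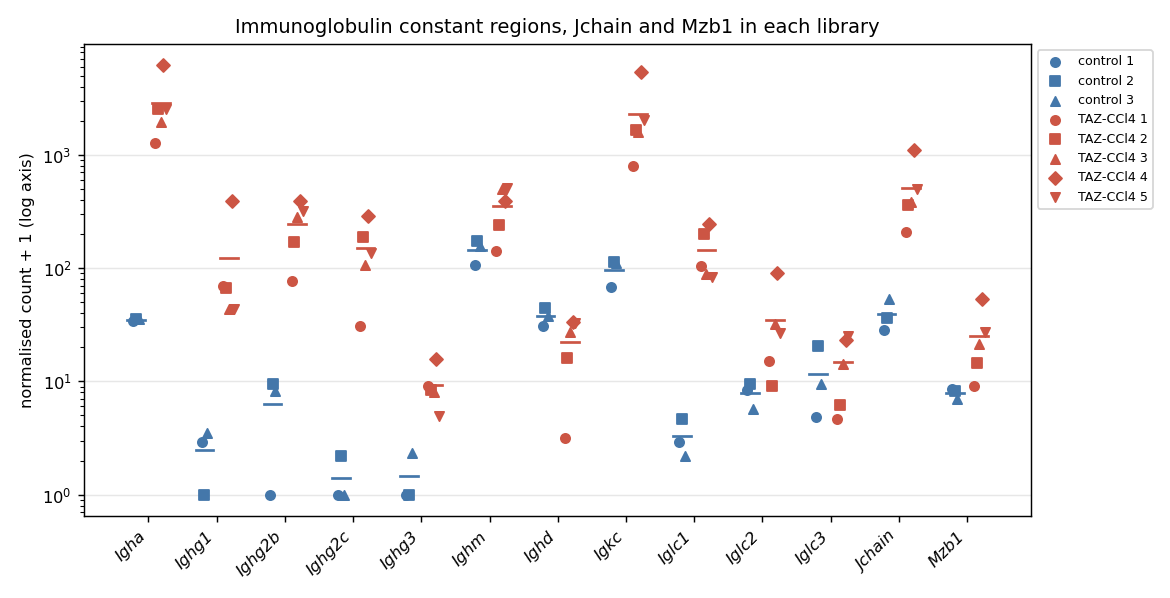
Normalised counts plus 1 (log axis) of the constant regions, Jchain and Mzb1, 1 point per library, with controls and TAZ-CCl4 libraries in separate colours. Igha shows the widest gap, from 32.7 to 34.5 in the controls to 1268 to 6138 in the TAZ-CCl4 libraries, while Ighd and Iglc3 overlap.

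Because these genes differ in length, isotypes were compared within a library per kilobase of exons, on the linear scale. In the controls Ighm made up 66.3% to 69.4% of the heavy constant signal, Ighd 16.3% to 18.4%, Igha 9.89% to 14.4% and the IgG genes 0.880% to 3.54%. In the TAZ-CCl4 libraries the order differed, with Igha first. Igha held 75.4%, 72.2%, 60.3%, 75.5% and 64.3% in replicates 1 to 5, the IgG genes 12.7% to 17.6%, Ighm 6.81% to 21.9% and Ighd 0.180% to 1.14%. None of these 4 shares overlapped between the groups. A share within a library does not depend on the scaling between libraries.

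**Figure D2:**
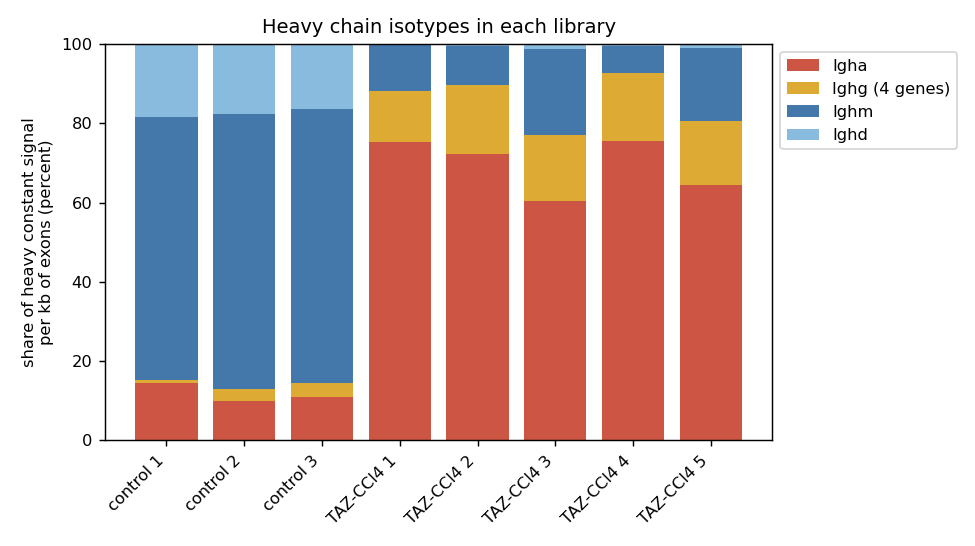
Share of each heavy chain isotype in the heavy constant signal per kilobase of exons (percent), as 1 stacked bar per library. Ighm fills 66.3% to 69.4% of the bar in the controls, and Igha fills 60.3% to 75.5% in the TAZ-CCl4 libraries.

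For ratios of 2 genes, the mean log2 ratio was compared between the groups by exact permutation (two-sided), over all 56 assignments of 3 and 5 libraries, which allow no p under 0.0357. Igha over Ighm was 0.202 to 0.308 in the controls and 3.90 to 15.7 in the TAZ-CCl4 libraries, 32.6-fold higher. Ighd over Ighm was 0.237 to 0.280 against 0.0155 to 0.0822, 5.33-fold lower, so IgD transcripts were scarcer relative to IgM transcripts in each of the 5 TAZ-CCl4 libraries. Both ratios separated the groups fully and reached the smallest p (exact permutation test, p = 0.0357; Benjamini-Hochberg over 7 ratios, 0.0357).

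The kappa constant region rose with the heavy chains. Igkc stood at 66.7, 112 and 109 in the controls against 796, 1641, 1595, 5349 and 2004 in the TAZ-CCl4 libraries. No TAZ-CCl4 value came near the controls, and replicate 4 was again the highest. The log2 fold change was 4.30 ± 0.48 (limma, adjusted p = 3.27e-05), and the ratio of the means was 23.7, or 15.7 without TAZ-CCl4 replicate 4. Igha over Igkc went from 0.308 to 0.491 in the controls to 1.15 to 1.59 in the TAZ-CCl4 libraries, 3.69-fold higher, without overlap (exact permutation test, p = 0.0357).

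Of the lambda constant regions, Iglc1 rose clearly. It stood at 1.91, 3.66 and 1.22 in the controls against 104, 198, 86.8, 244 and 82.8 in the TAZ-CCl4 libraries (log2 fold change 5.39 ± 0.45; limma, adjusted p = 4.63e-06). Iglc2 stood at 7.46, 8.47 and 4.75 against 14.2, 8.12, 31.1, 89.0 and 25.6. TAZ-CCl4 replicate 2 lay within the control range, and the change of 1.72 ± 0.66 (limma, adjusted p = 0.0433) was lost on leaving out any control or TAZ-CCl4 replicate 3, 4 or 5 (limma, adjusted p = 0.0685 to 0.131). Iglc3 stood at 3.82, 19.5 and 8.51 against 3.64, 5.18, 13.4, 22.3 and 24.0, with wide overlap, and its log2 difference of 0.28 ± 0.71 missed the threshold (limma, adjusted p = 0.746). Its difference was -0.23 without control replicate 1. Iglc4 was listed at 0 in each library. Of the 31-base stretches of Iglc1, 99.8% occur in no other gene, so its value is the most separable of the lambda constant regions.

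The lambda share of light chain constant signal, per kilobase of exons, was 12.5% to 23.6% in the controls and 6.80% to 14.8% in the TAZ-CCl4 libraries, with overlap. The lambda variable segments gave the opposite order, with 3.72% to 9.94% of the light chain variable signal in the controls and 8.78% to 16.5% in the TAZ-CCl4 libraries, also with overlap. Iglv1 carried most of that signal, at 1.91, 2.44 and 1.22 against 52.0, 110.0, 37.9, 144 and 64.3 (log2 fold change 4.71 ± 0.47; limma, adjusted p = 1.51e-05). Iglv2 and Iglv3 were listed at 0 in the controls, and had means of 8.44 ± 5.33 and 6.69 ± 7.80 (SD, n = 5) in the TAZ-CCl4 libraries. Iglv3 was at 0 in TAZ-CCl4 replicates 1 and 2 as well. The lambda variable shares of the controls thus rest on Iglv1 alone, at 1.22 to 2.44 normalised counts. The commonest low value in the controls, taken as 1 read, was 1.20 to 1.88, so these shares rest on very few reads.

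Jchain, the joining chain gene on chromosome 5 (88519809 to 88527891), rose by less than Igha. It stood at 27.5, 35.6 and 52.4 in the controls against 205, 362, 385, 1107 and 497 in the TAZ-CCl4 libraries, without overlap (log2 fold change 3.52 ± 0.45; limma, adjusted p = 8.06e-05). Jchain over Igha was 0.839 to 1.52 in the controls and 0.143 to 0.198 in the TAZ-CCl4 libraries, 6.27-fold lower (exact permutation test, p = 0.0357). In the TAZ-CCl4 libraries this ratio stayed in a narrow range although Jchain itself spanned 205 to 1107.

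Mzb1 was higher by a narrow margin. It stood at 7.58, 7.26 and 6.02 in the controls against 8.17, 13.5, 20.4, 52.7 and 26.2 in the TAZ-CCl4 libraries, and the groups came close without overlapping. The log2 fold change was 1.41 ± 0.55 (limma, adjusted p = 0.0467), and the call was lost without any 1 of the controls or without TAZ-CCl4 replicate 3, 4 or 5 (limma, adjusted p = 0.0711 to 0.118). Mzb1 over Jchain was 0.115 to 0.276 in the controls and 0.0372 to 0.0531 in the TAZ-CCl4 libraries, 4.09-fold lower (exact permutation test, p = 0.0357). Of the 31-base stretches of Mzb1, 55.1% also occur in its neighbour Spata24, whose values were 38.8 to 72.1 in the controls and 81.9 to 200.1 in the TAZ-CCl4 libraries. How reads were divided between the 2 genes was not tested.

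The variable signal was spread over many segment rows, and the number of different antibodies behind it was not measured. The Ighv sum was 4.11, 14.3 and 17.2 in the controls and 238, 482, 411, 867 and 550.2 in the TAZ-CCl4 libraries. The Igkv sum was 17.3, 63.3 and 27.2 against 312, 569.5, 542, 1413 and 785. Both sums separated the groups. Segments above 0 numbered 2, 10 and 7 of 183 Ighv rows in the controls and 58, 70, 61, 84 and 66 in the TAZ-CCl4 libraries. For Igkv they numbered 8, 31 and 17 of 160 rows against 67, 64, 65, 92 and 68. The number detected depends on depth: the commonest low value, taken as 1 read, was 0.366 in TAZ-CCl4 replicate 4 and 0.905 to 1.09 in the other four, which by this estimate makes replicate 4 the most deeply sequenced of the group. In the controls it was 1.20 to 1.88, so a single read weighs more there, although the same estimate gives each control more reads (18.6 to 24.9 M) than TAZ-CCl4 replicates 1, 2, 3 and 5 (12.4 to 14.4 M).

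No segment dominated. The highest Ighv segment held 5.98% to 7.20% of the Ighv sum in the TAZ-CCl4 libraries (6.76% ± 0.518, SD, n = 5), and the highest Igkv segment 7.64% to 9.37% of the Igkv sum (8.88% ± 0.712). The 5 highest segments together held 23.9% to 30.2% and 24.8% to 32.6%. The inverse Simpson index, the number of equally used segments that would give the same concentration, was 34.0 ± 3.80 for Ighv and 30.7 ± 2.35 for Igkv. In the controls the sums rest on too few reads for this measure. Division of reads among near copies also spreads the signal of 1 segment over several, and its part in these shares was not tested.

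**Figure D3:**
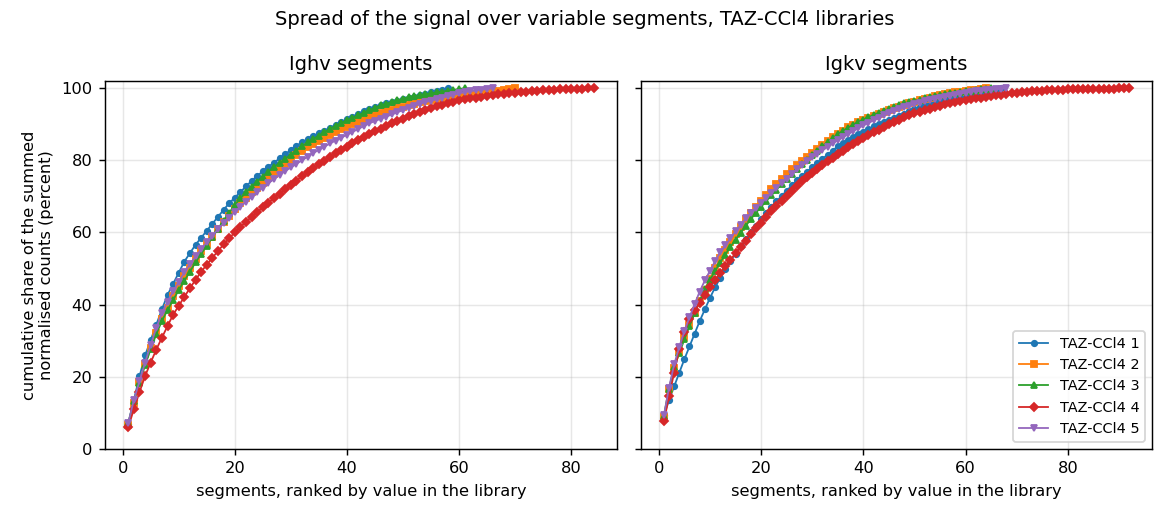
Cumulative share of the Ighv (left) and Igkv (right) sum (percent) against the number of segments ranked by value, 1 line per TAZ-CCl4 library. The lines rise slowly and close together, starting at 5.98% to 7.20% for Ighv and 7.64% to 9.37% for Igkv.

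The same segments recurred across libraries. In all 5 TAZ-CCl4 libraries 35 Ighv segments were above 0, and they held 70.4% of the Ighv signal of that group. For Igkv, 41 segments were above 0 in all 5 and held 81.2%. A further 16 Ighv and 13 Igkv segments appeared in a single TAZ-CCl4 library and held 0.641% and 0.283%. A segment with more signal is more often above 0, so large shares for segments seen in all 5 follow in part from the selection. The part of reads divided among near copies in this recurrence was not tested. The highest Ighv segment was Ighv1-64 in replicate 1, Ighv1-26 in replicate 2, Ighv9-3 in replicate 3 and Ighv1-72 in replicates 4 and 5. The highest Igkv segment was Igkv1-117 in replicates 1, 2 and 5 and Igkv10-96 in replicates 3 and 4.

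Among heavy segments, Ighv1-26 had the highest TAZ-CCl4 mean, at 0, 1.23 and 2.44 in the controls and 15.5, 31.3, 17.1, 40.7 and 34.9 in the TAZ-CCl4 libraries (log2 fold change 3.78 ± 0.56; limma, adjusted p = 1.99e-04). Ighv1-64 stood at 0, 1.23 and 0 against 16.5, 15.6, 24.8, 27.8 and 28.5 (4.14 ± 0.51; limma, adjusted p = 6.10e-05). Ighv1-64 varied less across the TAZ-CCl4 libraries than Ighv1-26. Ighv1-72 was uneven, listed at 0 in the controls against 7.37, 8.38, 4.79, 51.8 and 39.6 in the TAZ-CCl4 libraries. Ighv9-3 stood at 0, 0 and 1.22 against 4.59, 4.18, 29.5, 39.0 and 27.4, and Ighv1-53 at 0, 0 and 1.22 against 7.34, 29.3, 10.5, 27.4 and 28.5. Each of these 3 had its highest TAZ-CCl4 value at over 3 times its lowest. Ighv1-15 was listed at 0 in the controls against 15.7, 17.8, 20.0, 20.0 and 15.4, a narrow range.

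Among kappa segments, Igkv1-117 stood at 0, 1.22 and 2.44 in the controls against 29.2, 50.9, 40.9, 97.2 and 73.2 in the TAZ-CCl4 libraries (log2 fold change 4.79 ± 0.53; limma, adjusted p = 3.15e-05). Igkv10-96 stood at 0, 0 and 2.45 against 11.0, 25.1, 49.4, 108 and 60.2 (4.73 ± 0.74; limma, adjusted p = 3.07e-04), and at 5.33 on the log2 scale without control replicate 3. Neither overlapped between the groups. Igkv1-110, the near copy of Igkv1-117, stood at 0, 6.12 and 1.22 against 12.8, 43.7, 32.4, 93.2 and 50.2 (3.99 ± 0.74; limma, adjusted p = 8.82e-04). Its log2 fold change was 3.32 without control replicate 1 and 4.74 without control replicate 2. Igkv14-111 reached 93.2 in TAZ-CCl4 replicate 4 and 6.64 to 30.6 in the other four, against 0 to 1.92 in the controls (3.43 ± 0.82; limma, adjusted p = 0.00435). Igkv1-135 touched the control range, at 0, 3.67 and 1.22 against 3.66, 23.9, 20.9, 65.5 and 28.4 (3.32 ± 0.83; limma, adjusted p = 0.00556).

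In the controls the leading segments were mostly others, at low values. Ighv1-56 was the highest Ighv segment of control replicates 1 and 3, at 2.19, 1.01 and 8.02 in the controls against 0, 0, 1.08, 0.823 and 0 in the TAZ-CCl4 libraries. It was under the minimum for the test, and with no minimum it was the only one of the 209 genes called lower (limma, adjusted p = 0.0306), as were 19.4% of the 22625 genes above 0. Ighv1-76, Igkv8-19 and Igkv4-70 were the highest segment of their locus in 1 control each or shared that place, with values of 3.16, 3.40 and 2.45 there, each worth a few reads. Igkv10-96, also at 2.45, was level with Igkv4-70 in control replicate 3. The highest Igkv segment of control replicate 2 was Igkv1-110, at 6.12, which was among the 3 highest in each TAZ-CCl4 library. By family, Ighv1 held 59.8% ± 1.97 of the Ighv signal in the TAZ-CCl4 libraries (SD, n = 5), with 51 of its 92 rows above 0. Igkv1 held 19.0% ± 2.04, Igkv4 14.2% ± 1.79 and Igkv6 11.9% ± 2.51 of the Igkv signal. Rows annotated as pseudogenes were nearly silent: 5 of 68 in Ighv and 5 of 60 in Igkv were above 0, with a mean 0.248% and 1.11% of the signal.

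**Figure D4:**
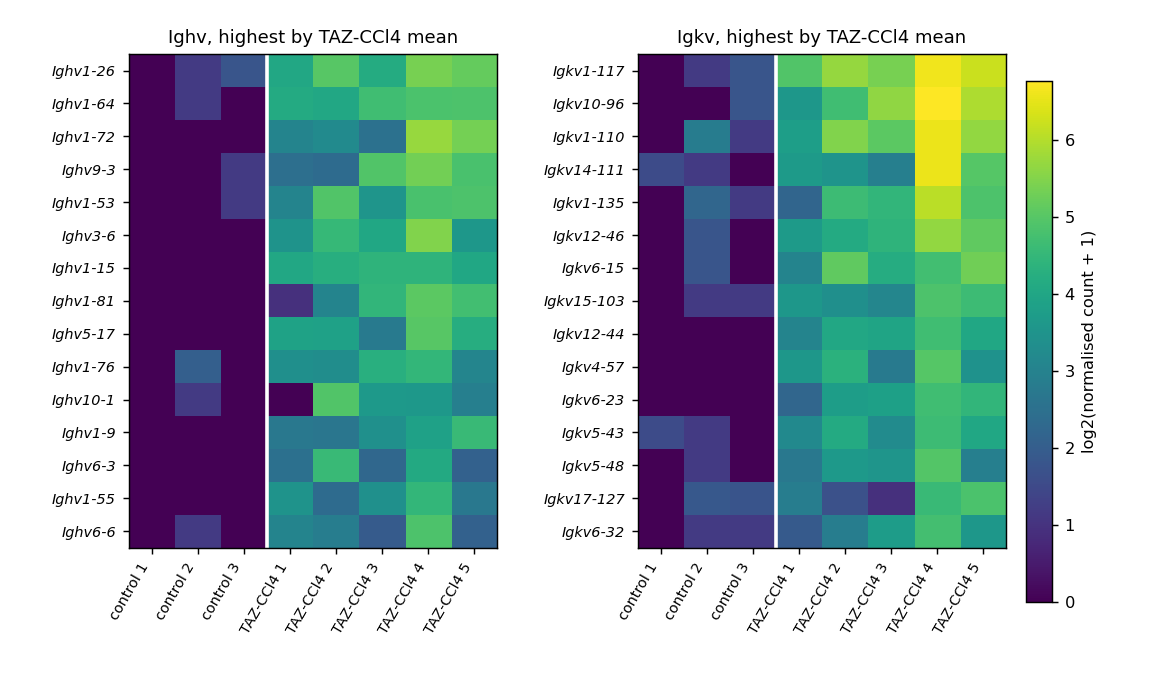
The 15 Ighv and 15 Igkv segments with the highest TAZ-CCl4 mean, as log2(normalised count + 1) in each library. The controls are low, Ighv1-15 is even across the TAZ-CCl4 libraries (15.4 to 20.0 normalised counts) and Ighv1-72 is uneven (4.79 to 51.8).

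The label of plasma cells was checked against genes outside the rule, from lists chosen with earlier results of these data known. Of 18 plasma cell genes 17 were tested: 6 were higher, 4 lower and 7 not called, against 32.4% and 29.8% of all genes tested. Of the 17, 14 were higher and 1 lower at equal library totals, a scaling at which 76.3% of the genes tested were called higher and 6.37% lower. Prdm1 and Irf4, transcription factor genes of plasma cell differentiation that T cells and other leukocytes also express, rose. Prdm1 stood at 3.52, 1.12 and 8.64 against 61.6, 39.5, 93.2, 52.5 and 59.2 (log2 fold change 3.73 ± 0.50; limma, adjusted p = 1.02e-04), and Irf4 rose by 2.45 on the log2 scale (limma, adjusted p = 0.00154). Tnfrsf13b, which encodes the receptor TACI, rose by 4.54 (3.71 without control replicate 1 and 5.16 without control replicate 2), Slamf7 by 2.79, Fkbp11 by 1.42 and Cd38 by 1.29 (limma, adjusted p = 4.36e-04 or lower). Prdm1, Irf4 and Tnfrsf13b had control means of 4.42, 2.86 and 3.26 and reached the minimum only through their TAZ-CCl4 values. They had to differ, so the p of each is a description, as is their part in the count of 6 higher. Tnfrsf17, which encodes the plasma cell receptor BCMA, was close to 0, at 0, 0 and 1.20 against 0.908, 0, 0, 5.44 and 2.18. Derl3 and Pou2af1, the other 2 defining genes, did not pass (limma, adjusted p = 0.439 and 0.446), with means of 85.0 ± 74.2 and 12.6 ± 5.88 in the controls and 116 ± 66.6 and 19.4 ± 12.5 in the TAZ-CCl4 libraries. At the deposited scaling 2 of the 5 defining genes were thus called, Prdm1 and Irf4, with the limit given above on the p of each. At equal totals Derl3 (1.79; limma, adjusted p = 0.00981) and Pou2af1 (1.65; limma, adjusted p = 0.0204) were called higher as well.

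Several genes that hepatocytes share with plasma cells fell at the deposited scaling. Xbp1, a transcription factor gene of the unfolded protein response, fell by 0.59 on the log2 scale, Sec11c fell by 0.68, Edem1 fell by 1.12 and Ell2 fell by 2.08 (limma, adjusted p = 0.0153, 0.00624, 3.90e-04 and 4.09e-06). The call of Xbp1 was lost without control replicate 1 or 3 (limma, adjusted p = 0.0700 and 0.0604). At equal library totals Xbp1 and Sec11c turned to 0.66 and 0.57 and were called higher (limma, adjusted p = 0.00347 and 0.00520). Edem1 turned to 0.13 and did not pass (limma, adjusted p = 0.478), while Ell2 stayed lower (-0.83; limma, adjusted p = 4.47e-04). Sdc1, the gene of the plasma cell surface marker CD138 and abundant in hepatocytes, was 3276 ± 493 in the controls and 4355 ± 1089 in the TAZ-CCl4 libraries and did not pass (limma, adjusted p = 0.105). The summed level of the list was 20770 to 22181 in the controls and 13895 to 19541 in the TAZ-CCl4 libraries, most of it from such shared genes.

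Few mature B cell genes were called. Of 15 genes 11 were tested: Cd37 was higher, Fcer2a and Pax5 were lower and 8 were not called (32.4% higher and 29.8% lower over all genes). At equal library totals 6 of the 11 were higher and 0 lower, where 76.3% of all genes were higher. Ms4a1, the gene of CD20, stood at 5.28, 15.8 and 8.42 against 9.01, 18.8, 17.0, 9.46 and 17.3. It did not pass, and its groups overlapped (limma, adjusted p = 0.329). Pax5, the transcription factor gene that keeps B cell identity and is switched off in plasma cells, fell by 2.15 ± 0.75 on the log2 scale (limma, adjusted p = 0.0281), from 15.0 to 29.9 in the controls to 0.371 to 11.7. With a TAZ-CCl4 mean of 5.85, Pax5 reached the minimum only through the controls, so its p is a description. The call of Pax5 was lost without control replicate 1 or 3 or TAZ-CCl4 replicate 3 (limma, adjusted p = 0.0510 to 0.0972), and at equal totals its difference was -1.09 (limma, adjusted p = 0.223). Cd79a and Cd79b, which encode the signalling chains of the B cell receptor, had means of 28.4 ± 9.18 and 26.8 ± 7.08 in the controls and 17.3 ± 5.96 and 26.1 ± 9.03 in the TAZ-CCl4 libraries (limma, adjusted p = 0.173 and 0.876). The summed level of the list was 214 to 390 in the controls and 246 to 475 in the TAZ-CCl4 libraries. In the same libraries the sum of the antibody chains alone differed 19.6-fold.

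Most genes of B cell development were low. Of 8 early B cell genes 7 were under the minimum. Among the defining ones, Rag1 was listed at 0 in 7 libraries, Igll1 in 6, and Vpreb1 was 2.41 to 7.25 in the controls and 0 to 5.44 in the TAZ-CCl4 libraries. Of 7 germinal centre genes 3 were tested: S1pr2 rose by 1.99 and Mybl1 by 2.29, and Bcl6, also a hepatocyte gene, fell by 1.76 on the log2 scale (limma, adjusted p = 1.24e-04, 0.00621 and 0.00296). The change of Mybl1 was 2.97 without control replicate 2 and 1.58 without control replicate 3. At equal totals S1pr2 and Mybl1 rose and Bcl6 did not pass.

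Other leukocyte genes rose too. Ptprc, the gene of the leukocyte marker CD45, went from 106 ± 35.3 to 973 ± 314, a log2 fold change of 3.17 ± 0.29 (limma, adjusted p = 9.40e-06). Of 8 T cell genes 5 were higher, 0 lower and 3 not called (32.4% and 29.8% over all genes), and their summed level was 88.9 to 121 in the controls and 177 to 454 in the TAZ-CCl4 libraries. Of the 8, 7 were higher and 0 lower at equal totals, where 76.3% of all genes were higher. Of 5 hepatocyte genes 4 were lower and Alb did not pass, with a summed level of 1749982 to 2187639.7 against 679892 to 961992. At equal totals 1 of the 5 was lower, where 6.37% of all genes were lower. The part of these changes in cell makeup in the antibody values was not tested.

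Genes for recruitment and survival of plasma cells and lymphocytes moved in both directions. Of 17 genes 11 were tested: 6 were higher, 2 lower and 3 not called (32.4% and 29.8% over all genes). At equal totals 8 of the 11 were higher and 1 lower, near the 76.3% and 6.37% over all genes. Tnfsf13 and Tnfsf13b, the genes of the survival ligands APRIL and BAFF, rose from 16.4 ± 6.13 to 81.3 ± 32.6 and from 7.74 ± 1.87 to 40.9 ± 16.2 (log2 fold changes 2.22 ± 0.36 and 2.18 ± 0.42; limma, adjusted p = 3.83e-04 and 0.00111). Tnfsf13b, with a control mean under 10, reached the minimum only through its TAZ-CCl4 values, so its p is a description. Tgfb1, the gene of a cytokine that directs switching to IgA, rose by 2.88 ± 0.23 (limma, adjusted p = 3.73e-06). Cxcr4, a chemokine receptor gene of plasma cells and many other leukocytes, stood at 0, 20.1 and 19.8 against 319, 264, 267, 242 and 212. Its log2 fold change was 5.09 ± 0.85 (limma, adjusted p = 4.41e-04), but 3.63 without control replicate 1 and 5.83 and 5.82 without control replicates 2 and 3, and those of Ltb and Ccl19 were 3.60 and 1.57. Ccl28, the gene of a chemokine that draws IgA plasma cells to mucosa, fell from 38.8 ± 16.4 to 3.36 ± 2.83 (-3.35 ± 0.62; limma, adjusted p = 9.39e-04). With a TAZ-CCl4 mean under 10, Ccl28 reached the minimum only through the controls, so its p is a description too. Cxcl12, the ligand gene of Cxcr4, fell by 0.39 on the log2 scale (limma, adjusted p = 0.0475), and its difference turned to 0.86 at equal totals. The call was lost without any 1 control or without TAZ-CCl4 replicate 1, 3 or 5 (limma, adjusted p = 0.05004 to 0.242). Cxcl13, a B cell chemokine gene, was 5.68 to 51.7 in the controls and 1.03 to 22.4 in the TAZ-CCl4 libraries and missed the threshold (limma, adjusted p = 0.387).

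**Figure D5:**
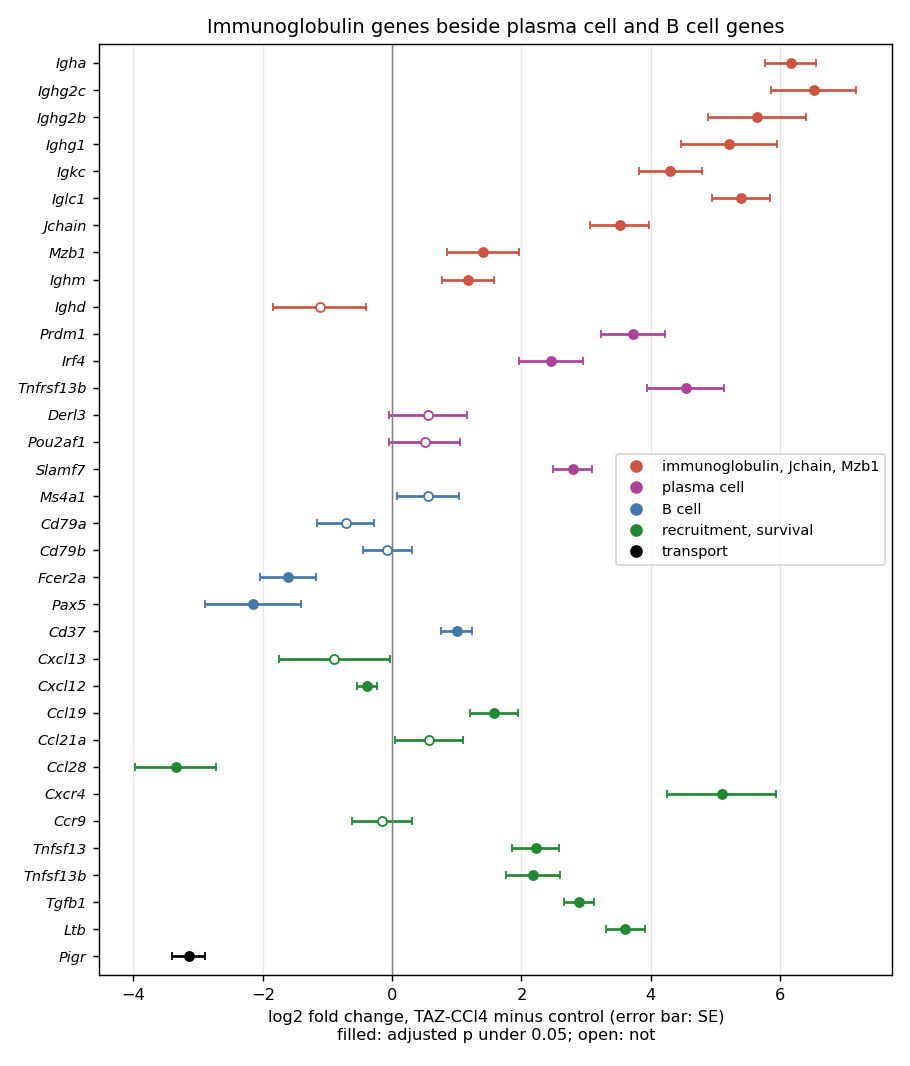
Log2 fold change, TAZ-CCl4 minus control, with its SE. The genes are constant regions, Jchain, Mzb1, some plasma cell genes, the B cell genes named in the text, recruitment and survival genes and Pigr. The plasma cell genes drawn are Prdm1, Irf4, Derl3, Pou2af1, Tnfrsf13b and Slamf7. Others of that list are not drawn, among them Fkbp11 and Cd38, called higher, and Xbp1, Sec11c, Edem1 and Ell2, called lower. Filled points passed limma at an adjusted p under 0.05. Igha stands at 6.16 and Ighg2c at 6.52, while Cd79a and Cd79b did not pass and Pigr stands at -3.15.

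The gene of the IgA carrier of hepatocytes was lower where Igha was higher. Pigr, the gene of the polymeric immunoglobulin receptor, stood at 20773, 25451 and 23269 in the controls against 2231, 1949, 3633, 1952 and 3886 in the TAZ-CCl4 libraries. The groups were far apart, with a log2 fold change of -3.15 ± 0.25 (limma, adjusted p = 3.88e-06), and -1.90 at equal totals. Hepatocyte genes were lower as well, with a median log2 fold change of -1.60 over the 5 listed. Pigr was set against the 2 defining genes of that list, of which Alb did not pass. The part of the lower hepatocyte signal in the Pigr values was not tested. Pigr over Alb was 3.97-fold lower and Pigr over Hnf4a 4.56-fold lower in the TAZ-CCl4 libraries, without overlap between the groups (exact permutation test, p = 0.0357 each).

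Within the TAZ-CCl4 group, replicates 4 and 1 stood at the ends for most classes. Replicate 4 held the highest value of 126 of the 208 immunoglobulin genes above 0 in that group, and replicate 1 the lowest of 47 of the 91 genes above 0 in all 5 libraries. By class, replicate 4 was highest for Igha, the IgG sum, Igkc, the Iglc, Ighv, Igkv and Iglv sums, Jchain and Mzb1, and replicate 5 was highest for Ighm. From lowest to highest, the TAZ-CCl4 libraries spanned 4.84-fold for Igha, 5.98-fold for the IgG sum, 6.72-fold for Igkc and 5.39-fold for Jchain, against 3.61-fold for Ighm. Replicate 4 had the lowest Xbp1 value of the group, 2442 against 3689 to 3911 in the other four.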

How the data were processed

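Normalised counts per gene symbol were read from the authors' deposited table for 3 control and 5 TAZ-CCl4 libraries. The values are a signal made by the authors from kallisto estimates and DESeq2 size factors, per the file name, with DESeq2 and mm10 also given per the submitters' processing notes. No source used here gives versions, transcript annotation, filters or the strand setting, so antisense partners cannot be told apart. Low values were not whole multiples of 1 read (47.3% to 66.8% lay within 0.03), so no count model was run.

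Genes with a mean of at least 10 were compared as log2(value + 1) with limma 3.58.1 (R 4.3.3, trended prior), Benjamini-Hochberg over 14171 genes, threshold 0.05, checked on simulated data. Ratios of single genes used exact permutation tests (scipy 1.17.1). No p was computed for sums. Positions, lengths, sequences and 31-base stretches came from GENCODE release M21, where 359 of the 361 rows were found. The genes named were all constant regions above 0, Jchain, Mzb1, the 5 highest Ighv and Igkv and 3 highest Iglv segments by TAZ-CCl4 mean, the highest segment of each library and the 4 largest changes either way. The members and lists were chosen with earlier results of these data known. Alternatives were other scalings, pseudocounts, minimum means, no trend, a replicate block and leaving out each library. Values of 2 list genes are not reported here.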

Additional observations from a re-analysis of the deposited data

Results flagged for a closer look

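In each group of 5 TAZ-CCl4 libraries, a value was singled out where its gap to the nearest other library, divided by the whole range, exceeded Dixon's 95% critical value. Of 127 values checked 14 were singled out. The critical value gives about 1 in 20 for independent, normally distributed values. These values share genes and libraries and are on a linear scale, so that rate does not apply to them. TAZ-CCl4 replicate 4 stood apart on the high side for Igha (6138), Igkc (5349), Ighg1 (393), Iglc2 (89.0), Igkv14-111 (93.2), Igkv8-19 (14.7) and Ighe (0.731), and for the number of Igkv segments above 0 (92). Ighe was listed at 0 in the rest of the group, so any value above 0 in replicate 4 would have been singled out. Replicate 4 stood apart on the low side for the share of the highest Igkv segment (7.64%) and for Xbp1 (2442). TAZ-CCl4 replicate 1 stood apart for a high Ighg3 share of the IgG sum (4.50%) and a low IgG share of the heavy constant signal per kilobase (12.7%). TAZ-CCl4 replicate 2 stood apart for high Sdc1 (6219) and Ccl21a (103).

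Joining segments, which the naming rule leaves out, also carried signal. The 4 Ighj genes summed to a TAZ-CCl4 mean of 27.3 normalised counts (12.0 to 51.9), against at most 0.358 in the controls. The 5 Igkj genes summed to a mean of 7.13 (2.78 to 15.5) and were listed at 0 in the controls.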

How the results depend on the processing

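The 28 immunoglobulin genes called higher and 0 lower became 104 higher and 1 lower (105 changed) at a mean of at least 1. With no minimum they became 105 higher and 1 lower (106 changed), and at a mean of at least 50 they were 9 higher of 9 tested. Over all genes, 28.5%, 21.9% and 30.4% were called higher in these settings, in that order. Leaving out 1 library gave 25 to 28 changed genes, all higher, while 28.3% to 32.4% of all genes were called higher. The log2 ratio of the summed values was 4.23, and 5.48 at equal library totals, a scaling under which the median change over the 14171 genes went from 0.025 to 1.26 on the log2 scale. Leaving out 1 library put the ratio between 3.77 and 4.43. Directions turned for Ighd at equal totals (0.056), and for Iglc3 with a replicate block (-0.40) and without control replicate 1 (-0.23, in a range of -0.23 to 0.82 over the libraries left out), none of which passed; the cause was not tested. The replicate numbers are shared by name only, since deviations of same-numbered libraries correlated at -0.0665, -0.0640 and -0.0883. With the replicate block 24 genes were higher and 0 lower, against 26.8% and 24.6% of all genes. The calls of Ighm, Iglc2 and Mzb1 were lost under the block (0.85, 1.09 and 0.84 on the log2 scale; limma, adjusted p = 0.0564, 0.207 and 0.269), and those of Iglc2 and Mzb1 also with a pseudocount of 10 and with no minimum. Counting limits the variable segments most: in the controls many rest on 1 to 3 reads or are listed at 0.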
